A study of Mus musculus with 32 samples.

Results

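The 6 genes described here encode the best-known purinergic receptors of microglia, P2ry12, P2ry13, P2ry6, P2rx4 and P2rx7, together with Entpd1, an enzyme that breaks down the nucleotides they sense. They were taken by gene symbol from the 2 deposited transcript tables and make up 6 of the 13704 genes listed in either table, 6 of 13377 in the female and 6 of 11999 in the male table. All 6 are listed in both tables, and the filter on low counts removed none of them.

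The RNA came from microglia isolated by fluorescence-activated sorting, in a series on spinal cord microglia, and was sequenced in 32 libraries. In repopulated libraries, microglia had been removed and had returned; in resident libraries they had not been removed. Each state was sampled with a fracture and without one, at day 14. The female table holds 4 repopulated and 4 resident libraries with fracture, and 3 repopulated and 4 resident libraries without fracture. The male table holds 7 repopulated and 5 resident libraries with fracture, and 2 repopulated and 3 resident libraries without fracture. The genotype is given as Cx3Cr1-Cre;Rosa26-iDTR for every library. In this cross Cre, under the control of Cx3cr1, a gene of microglia and other mononuclear phagocytes, switches on a diphtheria toxin receptor. Diphtheria toxin then kills the cells that carry it. Tamoxifen is needed for this only with an inducible Cre, which the genotype as given does not name. The sample descriptions call the libraries without depletion Wt or WT, so a difference in genotype or in exposure to the toxin cannot be told apart from repopulation. Female and male libraries were made with different kits, so sex and kit cannot be told apart either, and each table was fitted by itself. Nothing in the labels says that each library is a separate animal, so the p-values here reflect variation among these samples that may be technical.

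Injured and active cells release ATP and other nucleotides, and microglia sense them through G protein-coupled P2Y receptors and through P2X receptors, which are ion channels opened by ATP. P2ry12 and P2ry13 bind ADP and signal through Gi proteins, and P2ry12 is a marker of homeostatic microglia that guides their processes toward injury. P2ry6 binds UDP and promotes phagocytosis, P2rx4 in spinal microglia is known for its role in pain after nerve injury, P2rx7 drives release of interleukin-1 beta, and Entpd1 (CD39) cuts ATP and ADP down to AMP.

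In the mouse build GRCm38, P2ry12 lies on the minus strand of chromosome 3 at chr3:59216272-59262871 and P2ry13 beside it on the same strand at chr3:59207892-59210882, with 5389 bases between them. Both lie inside Med12l, a gene of the opposite strand at chr3:59005825-59318682. P2rx7 (chr5:122643911-122691432) and P2rx4 (chr5:122707544-122729738) are also neighbours, both on the plus strand with 16111 bases between them. P2ry6 lies on the minus strand at chr7:100937630-100974649 and Entpd1 on the plus strand at chr19:40612366-40741602. The 250 bases before the RefSeq start of 3 members (GRCm38.p6) are printed here because 2 of them, the neighbours P2ry12 and P2ry13, were lower together in repopulated microglia while P2rx4 was higher.

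The regions are chr3:59262986-59263235 on the minus strand for P2ry12, chr3:59210883-59211132 on the minus strand for P2ry13 and chr5:122707294-122707543 on the plus strand for P2rx4.
P2ry12: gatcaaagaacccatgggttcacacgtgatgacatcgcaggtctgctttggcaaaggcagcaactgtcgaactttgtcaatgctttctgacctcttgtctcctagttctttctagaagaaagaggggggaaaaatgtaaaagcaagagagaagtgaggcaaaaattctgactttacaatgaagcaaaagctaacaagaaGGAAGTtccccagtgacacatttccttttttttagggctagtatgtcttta
P2ry13: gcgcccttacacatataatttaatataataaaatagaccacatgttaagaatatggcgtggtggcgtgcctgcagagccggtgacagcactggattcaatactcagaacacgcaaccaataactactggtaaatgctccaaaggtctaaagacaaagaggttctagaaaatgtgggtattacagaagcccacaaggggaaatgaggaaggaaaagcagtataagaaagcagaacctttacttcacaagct
P2rx4: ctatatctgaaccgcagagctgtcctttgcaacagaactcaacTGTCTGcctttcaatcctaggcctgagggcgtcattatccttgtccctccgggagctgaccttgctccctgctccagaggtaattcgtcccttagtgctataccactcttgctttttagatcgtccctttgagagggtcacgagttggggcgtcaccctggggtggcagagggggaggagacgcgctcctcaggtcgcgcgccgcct
Capitals mark the matches to 3 motifs searched on both strands: the ETS core GGAAGT (bound by PU.1 and its relatives), the SMAD element CAGACA and the MAF half-site TGCTGAC. The P2ry12 window holds 1 ETS core, 51 to 46 bases before the start, as do 19.7% of the 32851 promoter windows of this length. The P2rx4 window holds 1 SMAD element, written as TGTCTG on the strand shown, 207 to 202 bases before the start, as do 17.1% of all windows. The P2ry13 window holds none of the 3 motifs. The MAF half-site (3.81% of all windows) is in none of the windows printed here. These matches describe the letters only. The P2rx4 window is 57.2% G and C, and the windows of P2ry12 and P2ry13 are each 41.6%.

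Library totals were 16438827 to 18654165 estimated counts in females and 5722993 to 33697535 in males, the lowest being male resident replicate 2 without fracture. Of 11 microglial markers other than the members, 11 were listed in both tables, and their summed level ran from 47132 to 57298 CPM (counts scaled by library size and TMM factor) in females and 53687 to 69945 CPM in males. It separated the groups in males without fracture, at 55181 to 57431 CPM in repopulated and 62114 to 66724 CPM in resident libraries, and overlapped in males with fracture and in females without fracture. Of 10 markers of macrophages of circulating origin, 7 were listed, some of which microglia also express, such as Apoe and Lyz2; the defining markers Ccr2, Ly6c2 and Klra2 were not. In the mean of both fracture states, 7 of these 7 passed the test as higher in repopulated libraries in females. In males 5 of 7 did. Of all genes, 8.52% in females and 12.8% in males passed in either direction. The sum of the 7 listed markers separated the groups. It was 5955 to 10672 CPM in female repopulated libraries and 1503 to 1902 CPM in resident ones with fracture, and 6226 to 14709 CPM against 1073 to 3899 CPM without fracture. In males it was 3560 to 12094 CPM in repopulated libraries and 1314 to 2219 CPM in resident ones with fracture, and 5656 to 12818 CPM against 1141 to 1423 CPM without fracture. The value of 3899 CPM is that of female resident replicate 3 without fracture, which stood apart from the other 3 of its group (1073 to 1393 CPM). For P2ry12, P2ry13 and P2rx4, the female gene-level change with repopulation without fracture and the interaction are given with and without this library. Of 6 B cell markers 3 were listed, with a sum of 343 to 376 CPM in female repopulated and 489 to 624.9 CPM in resident libraries without fracture, and 312 to 340 against 471 to 543 CPM in males. With fracture it was 389 to 461 CPM in female repopulated and 545 to 600 CPM in resident libraries, while the male sums, 332 to 451 and 429 to 529 CPM, overlapped. Border-associated macrophage markers, 3 of 7 listed in females and 4 of 7 in males, were low, with a sum of 22.1 to 65.1 CPM in female repopulated and 0.836 to 3.90 CPM in resident libraries with fracture, and the groups overlapped in the other 3 comparisons. The 1 listed neutrophil marker of 5, Csf3r, which microglia also express, ran from 1083 to 1217 CPM in female repopulated and 863 to 996 CPM in resident libraries without fracture, and 540 to 590 against 346 to 427 CPM in males. With fracture it was 1129 to 1246 against 856 to 977 CPM in females, and the male groups overlapped. In males without fracture, the 1 listed platelet marker of 4 was lower in repopulated libraries (13.2 to 13.6 against 30.4 to 37.3 CPM). The sum of the 3 listed astrocyte markers of 5 was also lower there (91.5 to 110 against 120 to 145 CPM). In the other comparisons of repopulated with resident libraries, both overlapped. The part of any of these markers in the results was not tested. In bulk RNA, fewer cells of a type and less RNA per cell cannot be told apart.

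P2ry12 and P2ry13 were lower and P2rx4 higher in repopulated than in resident microglia in both tables, Entpd1 was moderately lower, and P2ry6 and P2rx7 did not pass the test in any comparison with the scaling used here. Over both fracture states together, 4 of the 6 members were called in the female table, where 8.52% of all genes were called, and the same 4 in the male table, where 12.8% were. A gene was called at an adjusted p below 0.05 in the quasi-likelihood test of edgeR, adjusted by Benjamini-Hochberg over all genes of the table. The plot of CPM by library shows all values.

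**Figure D1:**
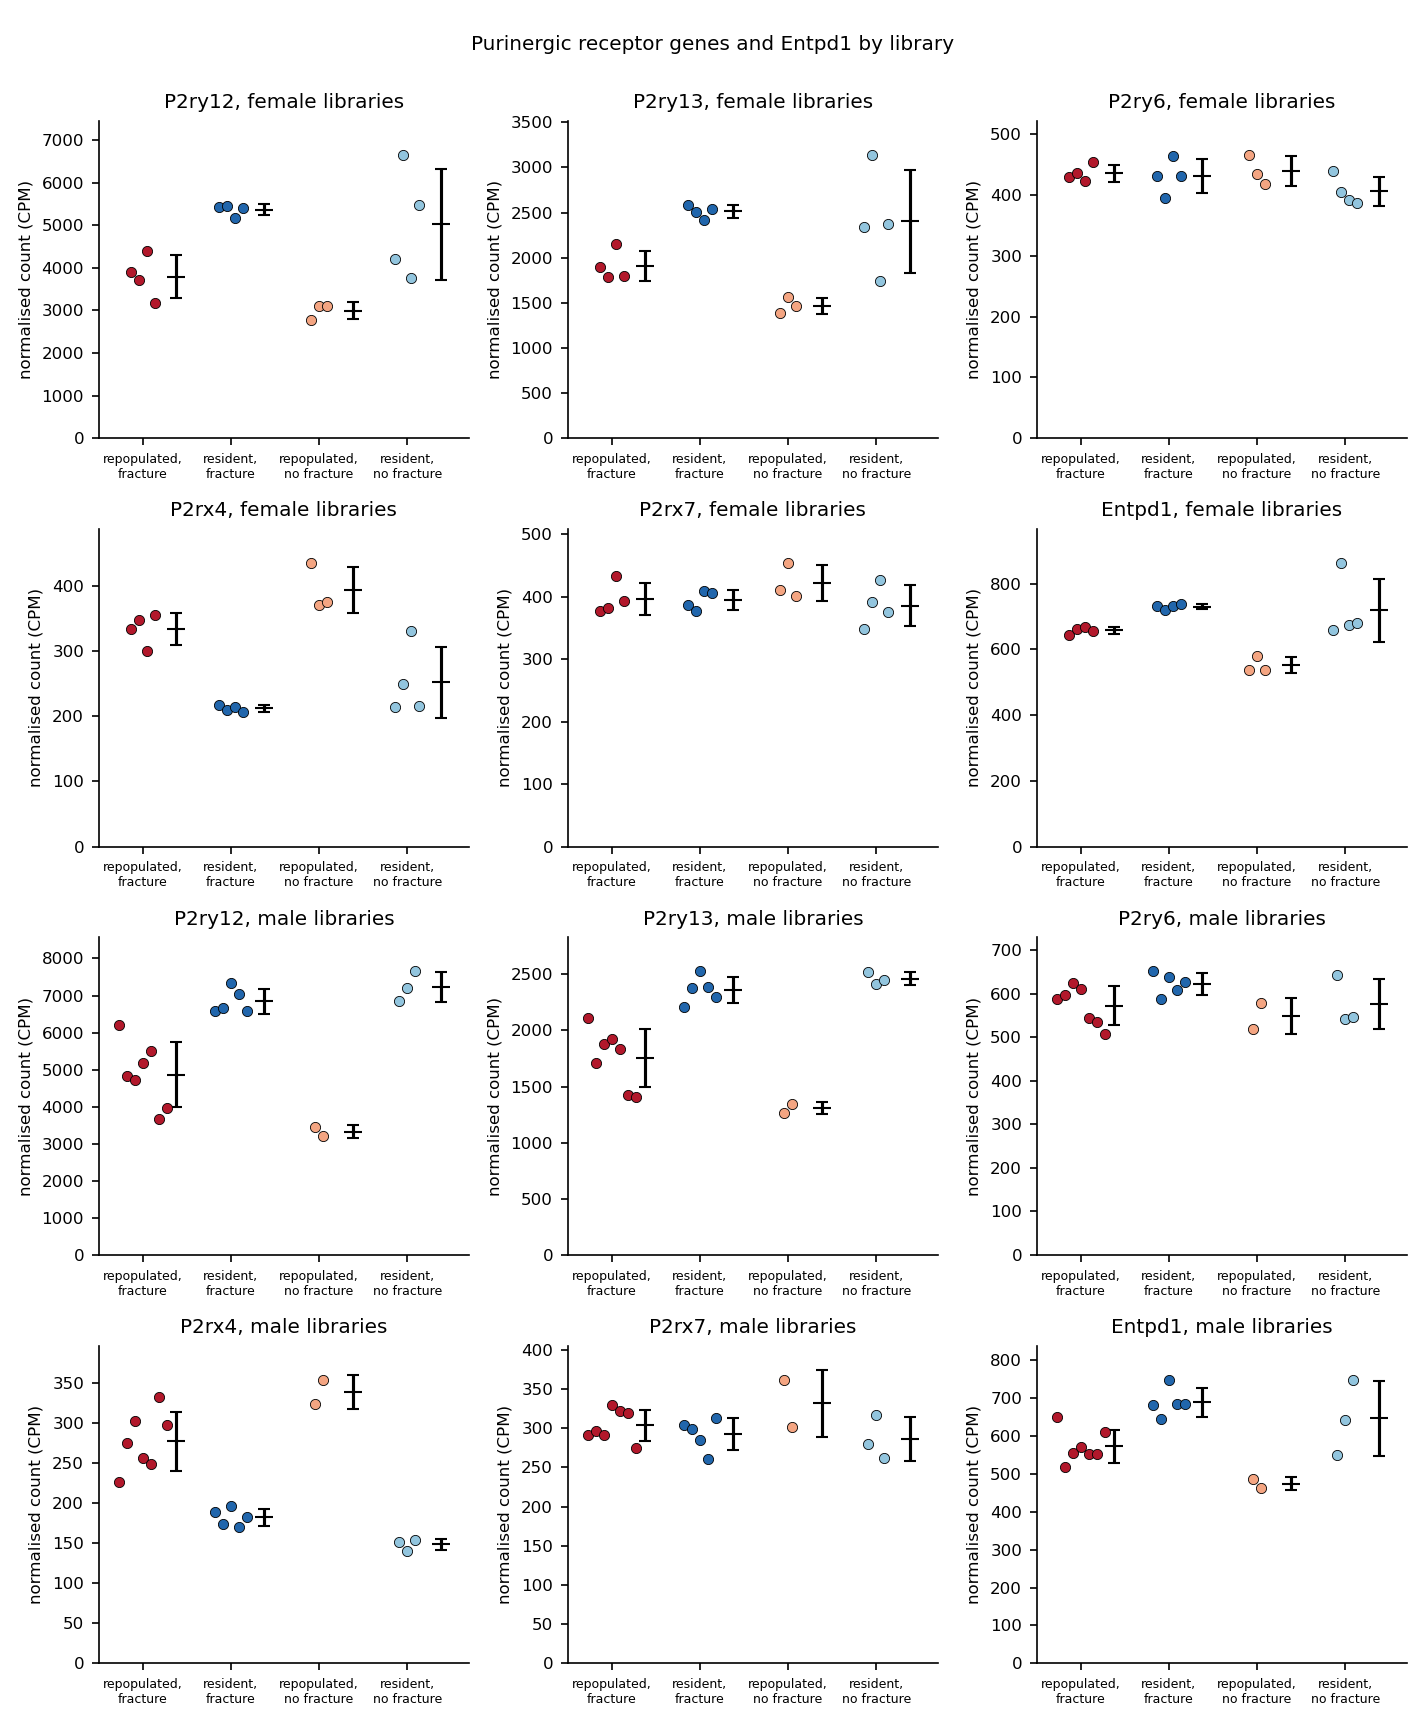
Normalised counts (CPM, linear axis from 0) of the 6 genes in each library of the female and male tables, in the groups repopulated with fracture, resident with fracture, repopulated without fracture and resident without fracture. Points are libraries and bars are means ± SD. P2ry12 and P2ry13 sit lower and P2rx4 higher in repopulated than in resident libraries of the same fracture state. Female resident replicate 3 without fracture (3769 CPM of P2ry12, 330 CPM of P2rx4) lies within the range of female repopulated libraries with fracture. For P2ry13 (1747 CPM) it lies below that range.

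Per length, P2ry12 had the highest level of the 6 in every group, followed by P2ry13 and then P2ry6. On this scale (TPM, per transcript length and library size over the listed transcripts), P2ry12 averaged 3414 ± 244 TPM (SD, n = 3) in female repopulated and 6337 ± 1810 TPM (n = 4) in resident libraries without fracture. P2ry13 averaged 1093 ± 73.4 and 1962 ± 505 TPM in the same groups, and P2ry6 averaged 614 ± 33.2 and 608 ± 36.8 TPM. The lower 3 genes changed places between the states. In female repopulated libraries without fracture, Entpd1 (324 ± 14.7 TPM) and P2rx4 (320 ± 14.2 TPM) overlapped and both lay above P2rx7 (265 ± 7.71 TPM). In the resident libraries Entpd1 (455 ± 68.5 TPM) was followed by P2rx7 (253 ± 20.2 TPM) and P2rx4 (220 ± 36.3 TPM), which overlapped. In males without fracture, P2rx4 stood at 286 ± 4.37 TPM in repopulated libraries (n = 2), above P2rx7 at 190 ± 24.8 TPM. In resident libraries (n = 3) it stood at 130 ± 11.3 TPM, below P2rx7 at 176 ± 9.65 TPM.

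P2ry12, the ADP receptor of ramified microglia, had 2781, 3114 and 3098 CPM in female repopulated libraries without fracture, against 4214, 6660, 3769 and 5464 CPM in resident ones. All 3 repopulated libraries lay below all 4 resident ones, and the resident libraries were spread widely. The log2 fold change was -0.75 ± 0.16 (SE; edgeR adjusted p = 0.0283), and -0.87 ± 0.14 (adjusted p = 0.00364) without resident replicate 3. Without resident replicate 2, the highest of its group, it was -0.58 and still called. The call was lost without resident replicate 4 or any 1 of the repopulated replicates (adjusted p = 0.0679 to 0.124). In the male table P2ry12 had 3446 and 3200 CPM in repopulated libraries without fracture, against 6856, 7203 and 7654 CPM in resident ones. The groups lay far apart, with a log2 fold change of -1.12 ± 0.15 (edgeR adjusted p = 7.77e-05), which is 0.459 times the resident level.

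With fracture, P2ry12 had 3908, 3705, 4394 and 3162 CPM in female repopulated libraries, against 5436, 5461, 5174 and 5403 CPM in resident ones. The groups did not overlap, but the log2 fold change of -0.50 ± 0.15 did not pass (edgeR adjusted p = 0.0937); it was called when resident replicate 2 or 3 of the group without fracture, which enters the same fit, was left out (adjusted p = 0.0222 and 0.0385). In the 7 male repopulated libraries with fracture, P2ry12 ranged from 3659 to 6208 CPM with a median of 4817 CPM, against 6594, 6671, 7340, 7049 and 6576 CPM in resident ones. Every repopulated library lay below every resident library, and P2ry12 fell by 0.49 ± 0.09 on the log2 scale (edgeR adjusted p = 0.00288).

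P2ry13, the neighbouring gene and a second ADP receptor, followed P2ry12. It had 1384, 1563 and 1459 CPM in female repopulated libraries without fracture, against 2338, 3143, 1747 and 2379 CPM in resident ones, and 1267 and 1343 CPM against 2523, 2412 and 2447 CPM in males. The groups did not overlap in either table, and the lowest resident value was again that of female replicate 3. P2ry13 fell by 0.71 ± 0.14 (edgeR adjusted p = 0.0168) in females and by 0.92 ± 0.13 (adjusted p = 0.000154) in males on the log2 scale. Without female resident replicate 3, the female change was -0.84 ± 0.10 (adjusted p = 0.000318), without resident replicate 2 it was -0.55 and still called, and without repopulated replicate 1 or 3 it was not called (0.0838 and 0.0503). With fracture P2ry13 had 1902, 1789, 2147 and 1799 CPM in female repopulated libraries, against 2588, 2509, 2414 and 2539 CPM in resident ones. The groups were separate, yet the change of -0.40 ± 0.13 was not called (edgeR adjusted p = 0.12), except without resident replicate 2 or 3 of the group without fracture (0.0208 and 0.0174). In males with fracture it ranged from 1408 to 2110 CPM with a median of 1835 CPM in repopulated libraries, against 2212, 2381, 2527, 2387 and 2295 CPM in resident ones, and fell by 0.43 ± 0.08 on the log2 scale (edgeR adjusted p = 0.00294).

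P2ry12 and P2ry13 lie within the span of Med12l, and whether counting used strand is not given in the sources used here. Whether their exons overlap those of Med12l was not examined. How many reads, if any, were counted for the wrong gene is therefore not known. Med12l was far lower, at 44.2 ± 2.36 CPM in female repopulated and 58.6 ± 9.72 CPM in resident libraries without fracture. As a mean of both fracture states, it fell by 0.38 ± 0.09 on the log2 scale in females (edgeR adjusted p = 0.0113), and its change was -0.23 ± 0.22 in males (adjusted p = 0.605). The ratio of P2ry12 to P2ry13 counts within a library, which no library scaling can move, had a log2 of 1.03 ± 0.05 in female repopulated and 1.06 ± 0.15 in resident libraries without fracture (SD). In males it was 1.35 ± 0.13 and 1.56 ± 0.10.

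P2ry6, the UDP receptor, kept a nearly even level. Without fracture it had 467, 435 and 418 CPM in female repopulated libraries and 439, 405, 392 and 387 CPM in resident ones, and 519 and 578 CPM against 643, 543 and 546 CPM in males. With fracture the values were 430, 436, 422 and 454 CPM against 431, 395, 465 and 432 CPM in females. In males they ran from 507 to 626 CPM with a median of 587 CPM in repopulated libraries, against 652, 588, 640, 608 and 628 CPM in resident ones. The groups overlapped in all 4 comparisons. Averaged over both fracture states, the log2 fold change was 0.06 with a 95% interval of -0.03 to 0.16 in females, and -0.02 when scaled by library totals, and -0.10 with an interval of -0.22 to 0.03 in males. Scaled by library totals, the male change was -0.17 and passed (edgeR adjusted p = 0.0481).

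P2rx4, the ATP-gated channel, was the member with the largest rise. It had 435, 371 and 374 CPM in female repopulated libraries without fracture, against 213, 248, 330 and 216 CPM in resident ones. All repopulated libraries were above all resident ones, resident replicate 3 coming closest, and the log2 fold change was 0.64 ± 0.12 (edgeR adjusted p = 0.0147), or 0.80 ± 0.09 (adjusted p = 0.00021) without that library. Without repopulated replicate 1 it was 0.56 and not called (adjusted p = 0.0731). In males P2rx4 had 323 and 354 CPM in repopulated libraries without fracture, against 151, 140 and 154 CPM in resident ones. The groups were well separated, and P2rx4 was 2.28-fold higher (log2 1.19 ± 0.13, edgeR adjusted p = 8.07e-06).

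With fracture P2rx4 had 333, 347, 300 and 355 CPM in female repopulated libraries, against 217, 210, 213 and 206 CPM in resident ones. Here the resident libraries lay close together and well below the repopulated ones, and P2rx4 was 1.58-fold higher (log2 0.66 ± 0.11, edgeR adjusted p = 0.00994). In males with fracture it ranged from 226 to 332 CPM with a median of 274 CPM in repopulated libraries, against 189, 173, 196, 170 and 183 CPM in resident ones. It was 1.52-fold higher (log2 0.60 ± 0.08, edgeR adjusted p = 0.000199), with no overlap.

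The log2 ratio of P2rx4 to P2ry12 counts within a library, which rests on the same 2 genes, was -2.93 ± 0.22 in female repopulated and -4.31 ± 0.56 in resident libraries without fracture (SD). With fracture it was -3.50 ± 0.30 and -4.67 ± 0.05. In males it was -3.29 ± 0.17 in repopulated and -5.61 ± 0.09 in resident libraries without fracture, and -4.12 ± 0.45 and -5.23 ± 0.10 with fracture. The plot of P2rx4 against P2ry12 shows the states apart in males. In females, resident replicate 3 without fracture (3769 CPM of P2ry12, 330 CPM of P2rx4) lies among the repopulated libraries with fracture.

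**Figure D2:**
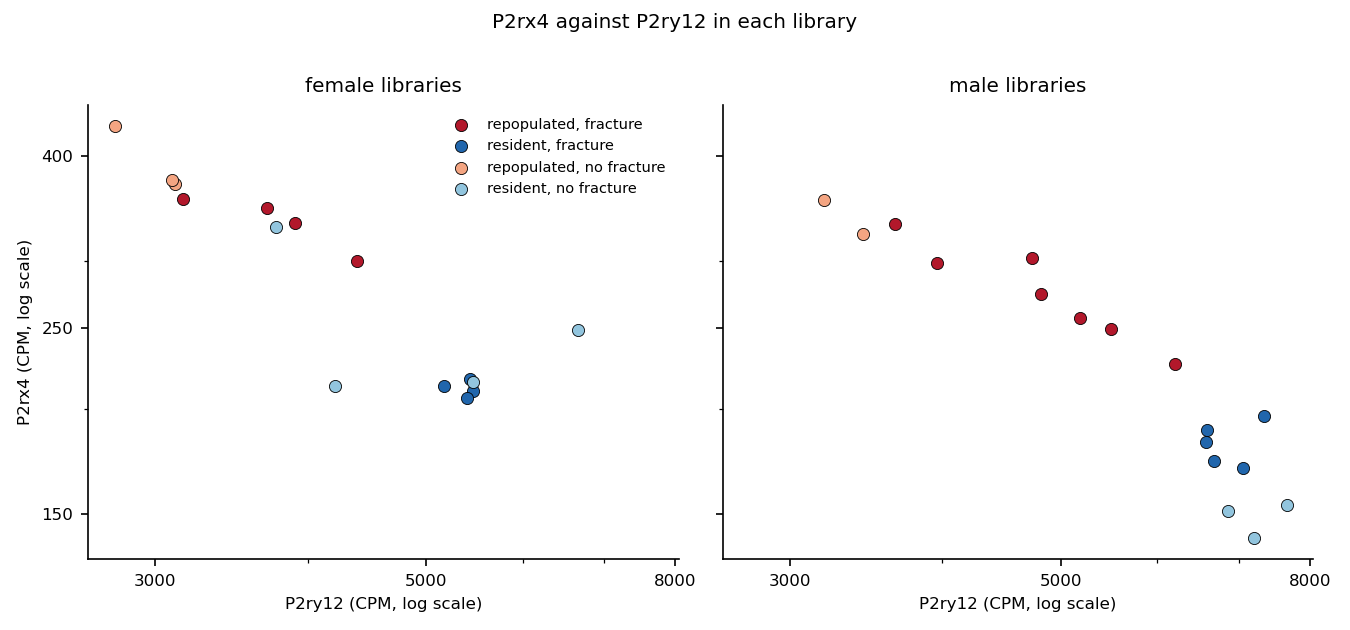
P2rx4 against P2ry12 in each library (CPM, both axes logarithmic), females and males in separate panels, coloured by group. Repopulated libraries lie toward low P2ry12 and high P2rx4; in males repopulated libraries without fracture lie farthest out, at 3200 and 3446 CPM of P2ry12 and 354 and 323 CPM of P2rx4.

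P2rx7, the channel whose gene adjoins P2rx4, did not share its change. It had 410, 454 and 401 CPM in female repopulated libraries without fracture and 349, 392, 427 and 375 CPM in resident ones, and 362 and 302 CPM against 279, 317 and 262 CPM in males. With fracture it had 377, 383, 432 and 393 CPM against 386, 377, 409 and 406 CPM in females, and in males 275 to 329 CPM with a median of 297 CPM against 305, 298, 285, 261 and 313 CPM. The groups overlapped each time. Averaged over both fracture states, the log2 fold change of P2rx7 was 0.07 (95% interval -0.04 to 0.18) in females, and -0.02 when scaled by library totals, and 0.14 (0.00 to 0.27) in males; neither passed (edgeR adjusted p = 0.53 and 0.206). The log2 ratio of P2rx7 to P2rx4 counts was 0.10 ± 0.19 in female repopulated and 0.63 ± 0.18 in resident libraries without fracture (SD), and -0.03 ± 0.28 and 0.94 ± 0.21 in males.

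Entpd1, the ecto-enzyme, was lower in repopulated microglia by less than the ADP receptors. It had 538, 580 and 538 CPM in female repopulated libraries without fracture, against 658, 863, 676 and 680 CPM in resident ones, and 486 and 462 CPM against 550, 642 and 748 CPM in males. The groups did not overlap in either table, and it fell by 0.38 ± 0.08 in females (edgeR adjusted p = 0.0205) and by 0.45 ± 0.11 in males (adjusted p = 0.0139) on the log2 scale. The female change was -0.28 without resident replicate 2 and still called. The female call was lost without repopulated replicate 1 or 3 (adjusted p = 0.0809 and 0.0558), and the male one without resident replicate 3 or either repopulated library (0.0578 to 0.156) and when only the groups without fracture were fitted (0.114). With fracture it had 643, 663, 669 and 656 CPM in female repopulated libraries, against 731, 721, 733 and 737 CPM in resident ones. This small separation, a log2 fold change of -0.15 ± 0.07, did not pass (edgeR adjusted p = 0.377). In males with fracture it ranged from 517 to 650 CPM with a median of 555 CPM in repopulated libraries, against 681, 644, 748, 684 and 684 CPM in resident ones. The highest repopulated library overlapped the lowest resident one, and Entpd1 fell by 0.27 ± 0.07 on the log2 scale (edgeR adjusted p = 0.0291). This call was near the threshold and was lost without any 1 of 8 of the 12 libraries (resident replicates 1, 3, 4 and 5, repopulated replicates 2, 3, 5 and 6; adjusted p = 0.0549 to 0.0956).

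By comparison, 4 of 6 members were called in females without fracture, 1 higher and 3 lower, where 2.53% of all genes were called. With fracture 1 of 6, P2rx4, was called in females against 2.35% of all genes. In males 4 of 6 were called without fracture, against 7.42% of all genes, and 4 of 6 with fracture, against 4.91%. The groups did not overlap for 4 of 6 members in females without fracture (13.3% of all genes), 4 of 6 in females with fracture (11.9%), 4 of 6 in males without fracture (35.4%) and 3 of 6 in males with fracture (3.58%). The female count without fracture depended on single libraries and on the fit. Without repopulated replicate 1, 0 of the 6 members passed edgeR's test, without replicate 3 only P2rx4 did, and 0 passed when only the 7 libraries without fracture were fitted. With fracture, DESeq2 called 3 of 6 in females, adding P2ry12 (adjusted p = 0.0167) and P2ry13 (0.0496) to P2rx4. It called 694 of the 12598 genes it adjusted over there.

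**Figure D3:**
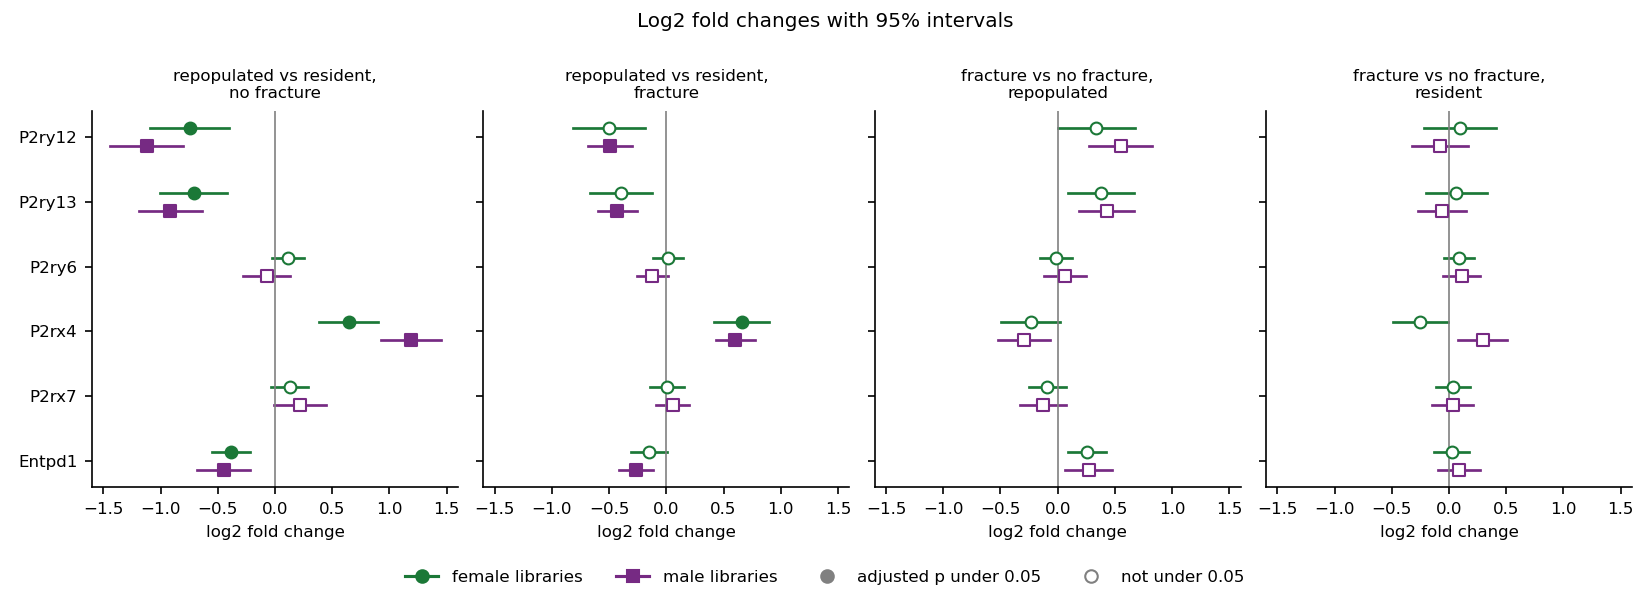
Log2 fold changes with 95% intervals of the 6 genes in 4 comparisons, repopulated against resident without and with fracture and fracture against no fracture in repopulated and in resident microglia; circles are females, squares males, and filled symbols have an adjusted p below 0.05. P2rx4 lies above 0 in both tables in repopulated against resident microglia, and no symbol is filled in the fracture comparisons.

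Fracture by itself moved none of the 6 genes past edgeR's threshold. In resident microglia 0 of 6 members were called in females, where 0% of all genes were, and 0 of 6 in males, where 0.00833% were. P2rx4 was the 1 member with an unadjusted p below 0.05 in each table. Its log2 change with fracture was -0.25 ± 0.11 in females (edgeR adjusted p = 0.94) and 0.29 ± 0.10 in males (adjusted p = 1.0). The female value was -0.090 without resident replicate 3 of the group without fracture. The male values, 189, 173, 196, 170 and 183 CPM with fracture against 151, 140 and 154 CPM without, did not overlap (4.53% of all genes), whereas the female ones did (3.09% of all genes did not). In resident microglia P2ry12 differed by 0.09 ± 0.15 in females and -0.08 ± 0.12 in males on the log2 scale. Its female value had no stable sign, at -0.016 without resident replicate 3 and 0.26 without replicate 2 of the group without fracture.

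In repopulated microglia, P2ry12, P2ry13 and Entpd1 had higher values with fracture than without in both tables, with no overlap, though edgeR called 0 of 6 members in females (0% of all genes called) and 0 of 6 in males (0.00833%). The groups did not overlap, with fracture the higher, for 6.81% of all genes in females and 3.57% in males. P2ry12 was at 3908, 3705, 4394 and 3162 CPM with fracture, against 2781, 3114 and 3098 CPM without, in females. In males it was at 3659 to 6208 CPM with fracture, against 3446 and 3200 CPM without. The gap between groups was narrow in both tables, and the log2 changes were 0.34 ± 0.16 (edgeR adjusted p = 0.474) in females and 0.55 ± 0.13 (adjusted p = 0.285) in males. P2ry13 differed by 0.38 ± 0.14 and 0.43 ± 0.12, Entpd1 by 0.25 ± 0.08 and 0.27 ± 0.10, and P2rx4 by -0.24 ± 0.12 and -0.29 ± 0.11, each in females and males. The female P2rx4 values were lower with fracture without overlap (300 to 355 against 371 to 435 CPM), and the male ones overlapped. The share of all genes that were lower without overlap is not given here. Unadjusted p-values were below 0.05 for 2 members in females (P2ry13 and Entpd1) and for 4 in males (P2ry12, P2ry13, P2rx4 and Entpd1). DESeq2 called 0 of 6 in females and 2 of 6 in males, P2ry12 (log2 0.54, adjusted p = 0.00778) and P2ry13 (log2 0.41, adjusted p = 0.0238). It called 90 of the 13116 genes it adjusted over in females and 58 of 1996 in males. The male edgeR test adjusted over 11999 genes.

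Male library titles carry a number in a low or a high range, which the labels do not call a batch, and the male libraries without fracture are all in the low range. Within the low range, P2ry12 was 4734 to 6208 CPM in 3 repopulated libraries with fracture, against 3200 and 3446 CPM in the 2 without, again with no overlap. With a term for the range, the change with fracture was 0.62 ± 0.14 on the log2 scale (edgeR adjusted p = 0.167). In the fit without this term it was 0.61 and called (edgeR adjusted p = 0.0247) when repopulated replicate 6 with fracture was left out. That library was the lowest of its group, at 3659 CPM.

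Whether the effect of repopulation differed with fracture was tested by the interaction, which was called for 0 of 6 members in females (0% of all genes) and 0 of 6 in males (0.00833%) by edgeR. In males the interaction was 0.63 ± 0.18 for P2ry12 (edgeR adjusted p = 0.367), 0.49 ± 0.15 for P2ry13 (adjusted p = 0.418) and -0.58 ± 0.15 for P2rx4 (adjusted p = 0.349) on the log2 scale, and these 3 had unadjusted p-values below 0.05. DESeq2 called the same 3 in males, with adjusted p-values of 0.0206, 0.0494 and 0.0126. It adjusted over only 1066 genes there and called 49 of them. In females the interaction was 0.24 ± 0.21, 0.31 ± 0.18 and 0.01 ± 0.17 for the same genes. Without resident replicate 3 of the group without fracture these values were 0.36, 0.44 and -0.14. Leaving out each library in turn, they ran from 0.079 to 0.36 for P2ry12, from 0.16 to 0.44 for P2ry13 (both lowest without resident replicate 2 of that group) and from -0.14 to 0.093 for P2rx4 (highest without repopulated replicate 1 without fracture). Entpd1 (0.23 ± 0.11) was the 1 member with an unadjusted p below 0.05 in females, and DESeq2 called 0 of 6 members and 1 of 13376 genes.

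The transcripts of P2ry12 changed unequally. GENCODE vM21 gives 5, all listed in both tables, of which 4 have a coding length of 1041 bases and differ in their first exons: P2ry12-204 and P2ry12-201 start far upstream, at bases 59262871 and 59262831 of chromosome 3, P2ry12-203 at 59227581 and P2ry12-202 at 59220259. P2ry12-205, with a coding length of 348 bases, starts at 59220200. The promoter window printed above lies before the upstream starts, not before that of P2ry12-202, the transcript given most counts. The estimated counts divide shared reads between transcripts, so these values are less certain than those of the gene.

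P2ry12-202 averaged 1320 ± 290 CPM in female repopulated and 2736 ± 875 CPM in resident libraries without fracture (SD, n = 3 and 4), and 1989 ± 172 and 4709 ± 505 CPM in males (n = 2 and 3). The upstream P2ry12-201 averaged 158 ± 27.5 and 177 ± 30.8 CPM in the same female groups and 178 ± 19.8 and 195 ± 19.0 CPM in the male ones. The groups lay apart for the first and overlapped for the second. Averaged over both fracture states, P2ry12-202 fell by 0.89 ± 0.15 on the log2 scale in females (edgeR adjusted p = 0.00831, over all transcripts) and by 0.89 ± 0.11 in males (adjusted p = 8.7e-05). P2ry12-201 had log2 changes of -0.07 ± 0.13 (adjusted p = 0.918) and -0.08 ± 0.15 (adjusted p = 0.902). P2ry12-204 lay between, with -0.27 ± 0.09 in females (adjusted p = 0.19) and -0.45 ± 0.09 in males (adjusted p = 0.00462), as did P2ry12-203 with -0.39 ± 0.09 (adjusted p = 0.0316) and -0.72 ± 0.09 (adjusted p = 0.00015). P2ry12-205 changed by -0.68 ± 0.10 and -1.13 ± 0.13, and passed in both tables. In this comparison 2.48% of all transcripts were called in females and 4.69% in males.

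As a share of P2ry12 counts, P2ry12-201 took 5.43% ± 1.3 in female repopulated and 3.59% ± 0.78 in resident libraries without fracture (SD), and 5.38% ± 0.86 and 2.68% ± 0.40 in males. A test of transcript use, chosen after these values were seen (edgeR's diffSpliceDGE, averaged over both fracture states), called P2ry12 in females (adjusted p = 0.00329), where 0.654% of genes were called, and in males (adjusted p = 8.89e-05), where 0.67% were. Relative to the rest of the gene P2ry12-201 was higher by 0.52 on the log2 scale in males (adjusted p = 0.000745), and by 0.41 in females, which did not pass (adjusted p = 0.322). In males P2ry12 was also called without fracture (adjusted p = 0.0127; 0.556% of genes) but not with fracture (0.494; 0.0855% of genes), and in females in neither state alone (0.0888 and 0.513; 0.403% and 0.352% of genes). No other member with several listed transcripts passed this test.

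**Figure D4:**
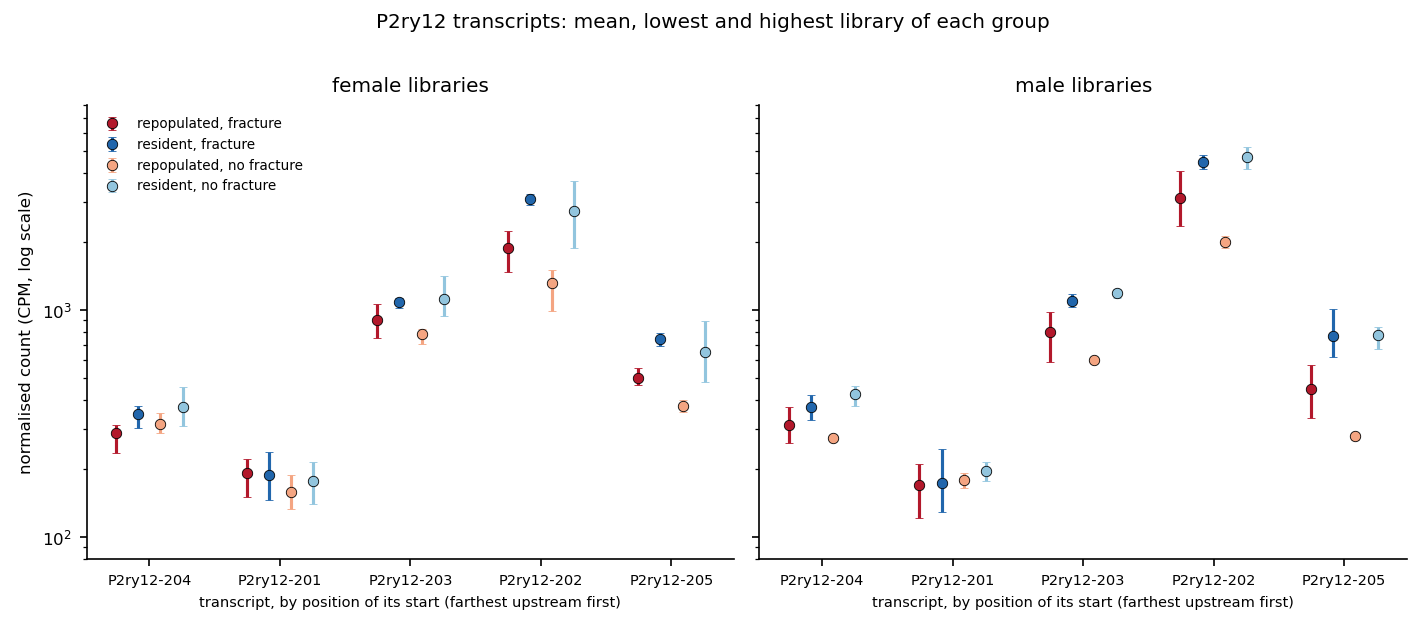
Level of the 5 listed transcripts of P2ry12 (CPM, logarithmic axis) in each group, from the farthest upstream start to the nearest; points are group means and bars run from the lowest to the highest library. The groups lie together for P2ry12-201 and apart for P2ry12-202 and P2ry12-205.

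For P2rx4, the transcript P2rx4-202 was higher in both tables, averaging 129 ± 10.3 CPM in female repopulated and 78.4 ± 10.7 CPM in resident libraries without fracture (SD), and 181 ± 23.4 and 78.2 ± 7.98 CPM in males. Averaged over both fracture states it rose by 0.69 ± 0.07 on the log2 scale in females (edgeR adjusted p = 0.000733) and by 0.84 ± 0.11 in males (adjusted p = 0.000109). Its share of the gene stayed at 33.3% ± 0.43 and 31.3% ± 2.89 in the female groups. Entpd1-201 carried 62.8% ± 1.17 of Entpd1 counts in female repopulated and 64.8% ± 1.84 in resident libraries without fracture, and fell by 0.33 ± 0.06 in females (edgeR adjusted p = 0.0123) and by 0.40 ± 0.10 in males (adjusted p = 0.0184) on the log2 scale.

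Within groups the members varied together in part. The correlation of log2 CPM deviations from the group mean between P2ry12 and P2ry13 was r = 0.892 over the 15 female and 0.888 over the 17 male libraries. Between P2ry12 and P2rx4 it was -0.522 and -0.817, and between P2ry12 and Entpd1 0.715 and 0.367. These points share library, depth and scaling, and the values are descriptions without a test. Among genes averaging at least 10 CPM (8202 in females, 7996 in males), those most like P2ry12 over all libraries of a table by Pearson r were Cttnbp2nl (0.98), Slc40a1 (0.972) and Calm2 (0.966) in females, and Gpr34 (0.985), Slc2a5 (0.98) and Tmem204 (0.971) in males. Those most like P2ry13 included Calm2 (0.967) and Bank1 (0.958) in females and were Slc2a5 (0.974), Tuba1a (0.968) and Tmem204 (0.963) in males. For P2rx4 they were Arid5b (0.971), Eef1a1 and Ctsa (both 0.962) in females and H2-D1 (0.972), Ifit1 (0.968) and Ctsh (0.966) in males. Entpd1 was most like Selplg (0.923), Txnip (0.909) and Cmtm6 (0.907) in females and Plxna4 (0.872), Bin1 (0.869) and Trpm4 (0.867) in males. The likeness of the 2 even genes was weaker, reaching 0.834 for P2ry6 (Sh3bgrl3) and 0.852 for P2rx7 (Zfp369) in females, and 0.817 (Med18) and 0.792 (Ppm1k) in males. These r include the difference between the states.

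Of 17 other purinergic receptors, 7 were listed in each table. With both fracture states averaged, 1 rose and 2 fell in females, and 2 rose and 2 fell in males. The median log2 change was 0.01 and 0.36. Of all genes, 8.52% were called in females and 12.8% in males, here and for the lists that follow. The counts of these short lists were not tested against that share. P2ry14, the UDP-glucose receptor beside P2ry13 and P2ry12, was at 13.1 ± 4.72 CPM in female repopulated and 1.57 ± 1.13 CPM in resident libraries without fracture (SD), a low level. It rose by 2.82 ± 0.62 on the log2 scale in females (edgeR adjusted p = 0.0102). In males it was called too, at 3.98 ± 1.00 CPM in repopulated libraries without fracture and 0 in all 3 resident ones. Gpr34, a lysophosphatidylserine receptor related to P2ry12, fell by 0.33 ± 0.08 in females (edgeR adjusted p = 0.0221) and by 0.58 ± 0.08 in males (adjusted p = 1.84e-05). P2ry10b, a receptor for lysophosphatidylserine and related lipids, fell by 0.66 ± 0.19 in females (adjusted p = 0.045) and had a change of -0.45 ± 0.16 in males (adjusted p = 0.0631). The adenosine receptor Adora1 rose by 2.05 ± 0.27 in males (edgeR adjusted p = 1.57e-05), from low counts, and had a change of 0.94 ± 0.42 in females (adjusted p = 0.225). Adora3 fell by 0.30 ± 0.08 in males (adjusted p = 0.0141).

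Of 20 genes of nucleotide and adenosine metabolism, 13 were listed in females, of which 1 rose and 3 fell, and 12 in males, of which 2 rose and 2 fell; the medians were 0.02 and -0.00. Enpp1, which cuts extracellular ATP to AMP and pyrophosphate, rose by 0.65 ± 0.16 in females (edgeR adjusted p = 0.0209) and by 0.56 ± 0.17 in males (adjusted p = 0.0332) on the log2 scale. Pnp, purine nucleoside phosphorylase, fell by 0.37 ± 0.07 (adjusted p = 0.0045) and by 0.54 ± 0.07 (adjusted p = 2.77e-05). The nucleoside transporter Slc29a1 fell by 0.26 ± 0.07 (adjusted p = 0.0358) and by 0.41 ± 0.06 (adjusted p = 8.05e-05). Enpp4, another ecto-phosphodiesterase, rose in males by 0.70 ± 0.11 (adjusted p = 0.000168), and Ada, adenosine deaminase, fell in females by 1.22 ± 0.36 from low counts (adjusted p = 0.0449). Of 10 genes of nucleotide release, 0 of the 9 listed in females were called and 1 of the 8 in males, Lrrc8c (2.17 ± 0.64, adjusted p = 0.0296, low counts).

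Of 14 genes of Gi signalling and motility, 13 were listed in each table. In females 0 rose and 2 fell, and in males 1 rose and 4 fell, where 8.52% and 12.8% of all genes were called. Coro1a, an actin regulator, fell by 0.26 ± 0.05 in females (edgeR adjusted p = 0.00411) and by 0.22 ± 0.05 in males (adjusted p = 0.00177) on the log2 scale, and Pik3cg, a kinase that Gi proteins activate, fell by 0.26 ± 0.06 in females (adjusted p = 0.0163). Of 13 genes of Gq signalling and phagocytosis downstream of P2ry6, 12 were listed in each table; 2 rose in females, Plcb2 (0.25 ± 0.06, adjusted p = 0.0196) and Prkcd (0.17 ± 0.05, adjusted p = 0.041), and edgeR called 0 in males.

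Of 9 inflammasome genes that act with P2rx7, all were listed; 1 rose and 1 fell in females, and 3 rose and 1 fell in males, with medians of 0.09 and 0.23. Txnip, which binds the inflammasome sensor, fell by 0.33 ± 0.06 in females (edgeR adjusted p = 0.00221) and by 0.51 ± 0.07 in males (adjusted p = 3.62e-05). Casp4, an inflammatory caspase, rose by 0.53 ± 0.12 (adjusted p = 0.0119) and by 0.82 ± 0.24 (adjusted p = 0.0268). Il1b, the cytokine whose release P2rx7 drives, rose by 1.38 ± 0.28 in males (adjusted p = 0.00164) and had a change of -0.00 in females, and the adaptor Pycard rose by 0.23 ± 0.06 in males (adjusted p = 0.01). Of 10 genes placed with P2rx4, its regulators and targets, 9 were listed in each table; 0 were called in females and 3 rose and 1 fell in males. The prostaglandin receptor Ptger4 rose by 2.21 ± 0.39 in males (adjusted p = 0.00053), and Irf5, a factor reported to induce P2rx4 in microglia, fell by 0.21 ± 0.05 (adjusted p = 0.00918). Of 20 genes that neighbour a member on the chromosome, 16 were listed in each table; 1 rose and 3 fell in females and 1 rose and 3 fell in males. Over all genes the median log2 change was -0.01 in females and -0.02 in males in this comparison, and 8.52% and 12.8% were called.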

How the data were processed

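The authors deposited 1 table of estimated counts by transcript for each sex, in whole numbers, which were used as they stand. The submitters' processing notes name STAR 2.7.6a, RSEM 1.3.1, DESeq2 1.34.0, R 4.1.3, cutadapt 3.4, Trim Galore 0.6.7, MultiQC 1.11 and FastQC 0.11.9, and the build GRCm38. What each did, which annotation release was used and whether counting used strand is not given in the sources used here. Genes that are rare in most libraries are not in these tables.

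Counts were summed by gene identifier. Each table was fitted with its 4 groups in edgeR 4.0.16 under R 4.3.3 (TMM scaling, the filterByExpr filter and a robust quasi-likelihood F test), with Benjamini-Hochberg adjustment over all genes, or all transcripts. A gene was called at an adjusted p under 0.05; the filter removed 0 genes. A standard error is the size of a log2 fold change over the square root of its F. CPM use TMM factors, and TPM use GENCODE vM21 lengths of the listed transcripts. Log2 CPM for correlations had a prior count of 2. Transcript use was tested with diffSpliceDGE. Promoters and their build are from the RefSeq table, which holds windows for P2ry12, P2ry13, P2rx4, P2rx7 and Entpd1. The members and lists were chosen with earlier results of these data known. Named are the 6 members, up to 4 called genes per list and comparison by size of change, and the 3 genes most like each member. A few genes that this rule names are not reported here. In simulated data with the male table's means averaged over both fracture states, 65% of 100 genes changed by 1 on the log2 scale and 42% of 100 changed by 0.6 were recovered, and 69% and 32% with the female ones; without fracture these shares were 34% and 10% in males and 43% and 9% in females, and with fracture 68% and 27% in males and 39% and 16% in females. False calls in these simulations were 4 in males and 10 in females averaged over both states. Without fracture they were 1 and 3, and with fracture 5 and 2. The changed genes were drawn at random from all genes of a table, so these shares are not those of the 6 members. Alternatives were DESeq2 1.42.0, library totals, a stricter filter, a replicate block, fits of 2 groups, a term for the number range of male titles, and leaving out each library.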

Additional observations from a re-analysis of the deposited data

Results flagged for a closer look

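Of 30 gene and group combinations with 4 to 7 libraries examined for a single distant library, 1 stood out. Entpd1 was at 863 CPM in female resident replicate 2 without fracture, against 658 to 680 CPM in the other 3 libraries of the group. The gap between this library and the next was 0.894 of the range of the group, above Dixon's critical value of 0.829 for 4 libraries. Chance alone gives such a gap in about 1 in 20 groups, and the same library was also the highest of its group for P2ry12 (6660 CPM) and P2ry13 (3143 CPM).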

How the results depend on the processing

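P2ry12, P2ry13, P2rx4 and Entpd1, averaged over both fracture states, were called in both tables under every alternative run on genes, leaving out each library included. With DESeq2 the genes called in females were 676 without and 694 with fracture (members with fracture 3), 4 and 90 for fracture in resident and repopulated microglia and 1 for the interaction; in males they were 12, 58 and 49 for the last 3, with 2 and 3 members in the last 2. In males DESeq2 adjusted the fracture comparison in repopulated microglia over 1996 genes and the interaction over 1066. With library totals the median of all genes shifted to -0.11 and -0.09 in females and to -0.12 and -0.05 in males without and with fracture. P2ry6 and P2rx7 then turned to -0.075 and -0.083 in females with fracture, and to -0.024 and -0.020 averaged over both states; P2rx7 in females with fracture also turned to -0.0052 under the stricter filter and -0.0076 when only the groups compared were fitted. The share of calls that were higher moved from 61.8% to 33.7% and from 54% to 28.5% in females, and from 63.4% to 46.9% and from 61.8% to 47.3% in males. Averaged over both states it moved from 52% to 28.2% in females and from 55.7% to 38.8% in males. With at least 10 CPM in at least 3 libraries, 0 genes were called for fracture in male repopulated microglia and 2 for the interaction; with the number-range term 2 and 0. Fitting only the groups compared left 0 genes and 0 members in females without fracture, and gave 629 genes and 3 members with fracture; in males without fracture Entpd1 was no longer called (adjusted p = 0.114). The causes were not tested.

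Same-numbered libraries correlated at -0.65 to 0.64 in females and -0.23 to 0.11 in males (deviations from group means). Of these pairs, 5 of 21 in females and 1 of 17 in males were above 0.1. Between female repopulated and resident libraries the values were 0.64, 0.026 and 0.50 for replicates 1 to 3 without fracture. With fracture they were 0.21, 0.032, -0.17 and 0.30 for replicates 1 to 4. With so few libraries per group, these values cannot settle whether the numbers pair them. With the replicate block the genes called were 143 without and 184 with fracture in females, where P2ry12 without fracture was no longer called (adjusted p = 0.0706). In males they were 293 with fracture, 2 and 56 for fracture in resident and repopulated microglia and 57 for the interaction, with 2 and 3 members in the last 2, and Entpd1 was not called without (adjusted p = 0.0714) or with fracture (0.101).

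Leaving out each library gave, in females, 0 to 4 members and 51 to 612 genes without fracture, 1 to 3 members and 106 to 488 genes with fracture, 891 to 1329 genes averaged over both, and 0 to 1 genes for fracture in resident microglia and for the interaction. In males it gave 3 to 4 members and 414 to 949 genes without fracture, 3 to 4 members and 400 to 716 genes with fracture, 937 to 1641 genes averaged over both, and 1 to 2 genes for fracture in resident microglia. For fracture in male repopulated microglia it gave 0 to 1 members and 1 to 29 genes, and for the interaction 0 to 14 genes. Uncalled log2 changes that changed sign when a library was left out had these ranges. For repopulated against resident microglia they were -0.024 to 0.054 (P2ry6) and -0.038 to 0.026 (P2rx7) in females with fracture, and -0.15 to 0.011 (P2ry6) in males without. For fracture in resident microglia they were -0.016 to 0.26 (P2ry12), -0.056 to 0.22 (P2ry13), -0.013 to 0.089 (P2rx7) and -0.018 to 0.12 (Entpd1) in females, and -0.026 to 0.12 (P2rx7) and -0.015 to 0.21 (Entpd1) in males. For fracture in repopulated microglia they were -0.046 to 0.039 (P2ry6) in females, and -0.014 to 0.14 (P2ry6) and -0.25 to 0.0083 (P2rx7) in males. For the interaction they were -0.14 to 0.093 (P2rx4) in females and -0.13 to 0.033 (P2ry6) in males. Male resident replicate 2 without fracture had the lowest depth, 5722993 counts, and its P2rx4 value of 140 CPM rests on 836 counts.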
